A study of Mus musculus with 8 samples.

Results

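The genes described here encode axon guidance ligands and their receptors: the semaphorins, netrins and Slits, and the plexins, neuropilins, netrin receptors and Robos that bind them. The 42 genes, 24 ligands and 18 receptors, were taken from a list of these families by gene symbol, a list drawn up with earlier results of these data known. All 42 were matched among the 22180 named genes of the arrays, each through a probe set annotated with exactly 1 gene symbol, and where a gene had several, through the brightest on average. A filter on low values, a mean log2 signal over all 8 arrays of at least 3.88, was passed by 38 of the 42, or 17576 (79.2%) of all named genes. The 4 below it were Sema3c, Sema3e, Nrp1 and Robo2, with log2 signals between 3.19 and 4.07 in every array, and they entered no test.

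Expression was measured on 8 single-colour microarrays of RNA from hematopoietic stem and progenitor cells, sorted from bone marrow of C57/Bl6 mice with a labelled age of 8 weeks. The long-term stem cells (LT-HSC, 2 arrays) were CD48-, CD150+ and CD34-, the short-term stem cells (ST-HSC, 3 arrays) were CD48-, CD150+ and CD34+, and multipotent progenitors (MPP, 3 arrays) were CD48+, CD150- and CD34+. Every population was lineage-negative, Sca1+ and Kit+. The labels disagree on treatment: each description states none, but a protocol text shared by all samples tells of DMSO for 2 hours, a first recipient for 1 year and a second for 3 months. They name no separate animals behind the arrays, so the spread that the p-values rest on is that of these samples alone and could be technical. In such bulk samples, fewer cells of a type and less RNA per cell cannot be told apart.

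Semaphorins signal mainly through plexins, and the secreted class 3 semaphorins usually need a neuropilin as co-receptor. Netrins attract or repel growing axons through DCC, neogenin and the UNC5 receptors, and Slits repel them through Robo receptors. Outside the nervous system the same families act in blood vessels, in immune cells and in bone marrow, where Robo4 on hematopoietic stem cells is known to take part in their lodging in the niche. Neogenin, encoded by Neo1, is an immunoglobulin superfamily receptor related to DCC that binds netrins and repulsive guidance molecules.

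Of the sort markers, Slamf1, which encodes CD150, read 7.77 and 7.78 in LT-HSC, 7.32, 7.25 and 7.46 in ST-HSC and 4.93, 5.46 and 4.77 in MPP. This follows the CD150 gate, which sets MPP apart but does not separate LT-HSC from ST-HSC, which differ in CD34. Slamf1, Cd34 and Cd48 belong to a list of 12 stem and progenitor genes, of which 10 were matched and tested. All ST-HSC arrays were above all LT-HSC arrays for 0 of these 10, against 13.8% of all genes, and below them for 5, against 9.5%. Differences of ST-HSC from LT-HSC in this list ran from -0.94 to 0.58. Cd34 and Cd48 are not given singly, so the RNA of the gate between LT-HSC and ST-HSC is not shown. The replicate 1 arrays of LT-HSC and of ST-HSC stood apart in range and in correlation. Their interquartile ranges of log2 signal were 2.49 and 2.73 (2.82 to 3.06 elsewhere) and their median correlations with the other arrays 0.956 and 0.968 (0.976 to 0.985 elsewhere). All 10 granulocyte marker genes passed the filter, and their mean deviation from each gene's mean over all arrays was 1.10 and -1.14 in LT-HSC, from -0.93 to 1.48 in ST-HSC and from -0.45 to 0.77 in MPP. The highest of these was ST-HSC replicate 1, which was also highest for the stroma markers (1.47, 8 tested) and the erythroid markers (1.00, 5 tested), where the other arrays had -0.50 to 0.26 and -0.66 to 0.46.

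Neo1 was the one member whose level differed between populations at an adjusted p under 0.05. Probe set 17527735 (Entrez gene 18007) read 5.66 and 6.12 in LT-HSC, 4.63, 4.93 and 4.73 in ST-HSC and 4.29, 4.21 and 4.45 in MPP. Both LT-HSC arrays were above all others, the 3 ST-HSC arrays were in the middle, and the 3 populations had no overlap. LT-HSC averaged 5.89 ± 0.32 (SD, n = 2), ST-HSC 4.77 ± 0.15 (SD, n = 3) and MPP 4.32 ± 0.12 (SD, n = 3).

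From LT-HSC to MPP, Neo1 fell by 1.57 on the log2 scale (SE 0.19), 2.97-fold, with a limma adjusted p of 0.00951. From LT-HSC to ST-HSC it fell by 1.12 (SE 0.19), 2.18-fold, with a limma adjusted p of 0.0223. The MPP minus ST-HSC difference was -0.45 (SE 0.17) and did not pass (limma adjusted p = 0.568), so the last step in the order of means was not separated by the test over all genes. Over the 3 populations together, the F test gave a limma adjusted p of 0.0111, the smallest of any member and rank 33 of all genes. Of the 38 tested members, 1 was called lower in MPP than in LT-HSC and 1 lower in ST-HSC than in LT-HSC, both times Neo1, where 0.119% and 0.0853% of all genes were called lower. No member was called higher in either comparison, where 0.00569% and 0.848% of all genes were. The F test called 1 of the 38, against 0.905% of all genes.

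The calls for Neo1 depended on single arrays and on the scaling, while its direction did not turn in any setting tried. The MPP minus LT-HSC difference stayed between -1.80 and -1.35 with a limma adjusted p from 0.00252 to 0.0996. It missed the threshold without MPP replicate 1 (limma adjusted p = 0.0693), 2 (0.0598) or 3 (0.0525), after median centring of each array (0.0996) and with array weights (0.0568). The ST-HSC minus LT-HSC difference stayed between -1.35 and -0.90 with a limma adjusted p from 0.00675 to 0.123. It missed the threshold without LT-HSC replicate 1 (limma adjusted p = 0.0621), ST-HSC replicate 1 (0.0666) or 3 (0.103), or MPP replicate 3 (0.0546), without both arrays that stood apart (0.0953), after median centring (0.105), with array weights (0.123) and with the 2 groups alone (0.0821). The F test passed in 15 of 16 alternatives, with a limma adjusted p from 0.00162 to 0.0631, the last after median centring. The 12 endothelial marker genes had a mean deviation of 0.04 and 0.13 in LT-HSC, 0.03 to 0.06 in ST-HSC and -0.18 to -0.04 in MPP. The 6 tested megakaryocyte genes (of 9 listed) had -0.12 and 0.22 in LT-HSC, 0.30 to 1.04 in ST-HSC and -0.83 to -0.34 in MPP. The part of either list in the result was not tested.

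**Figure D1:**
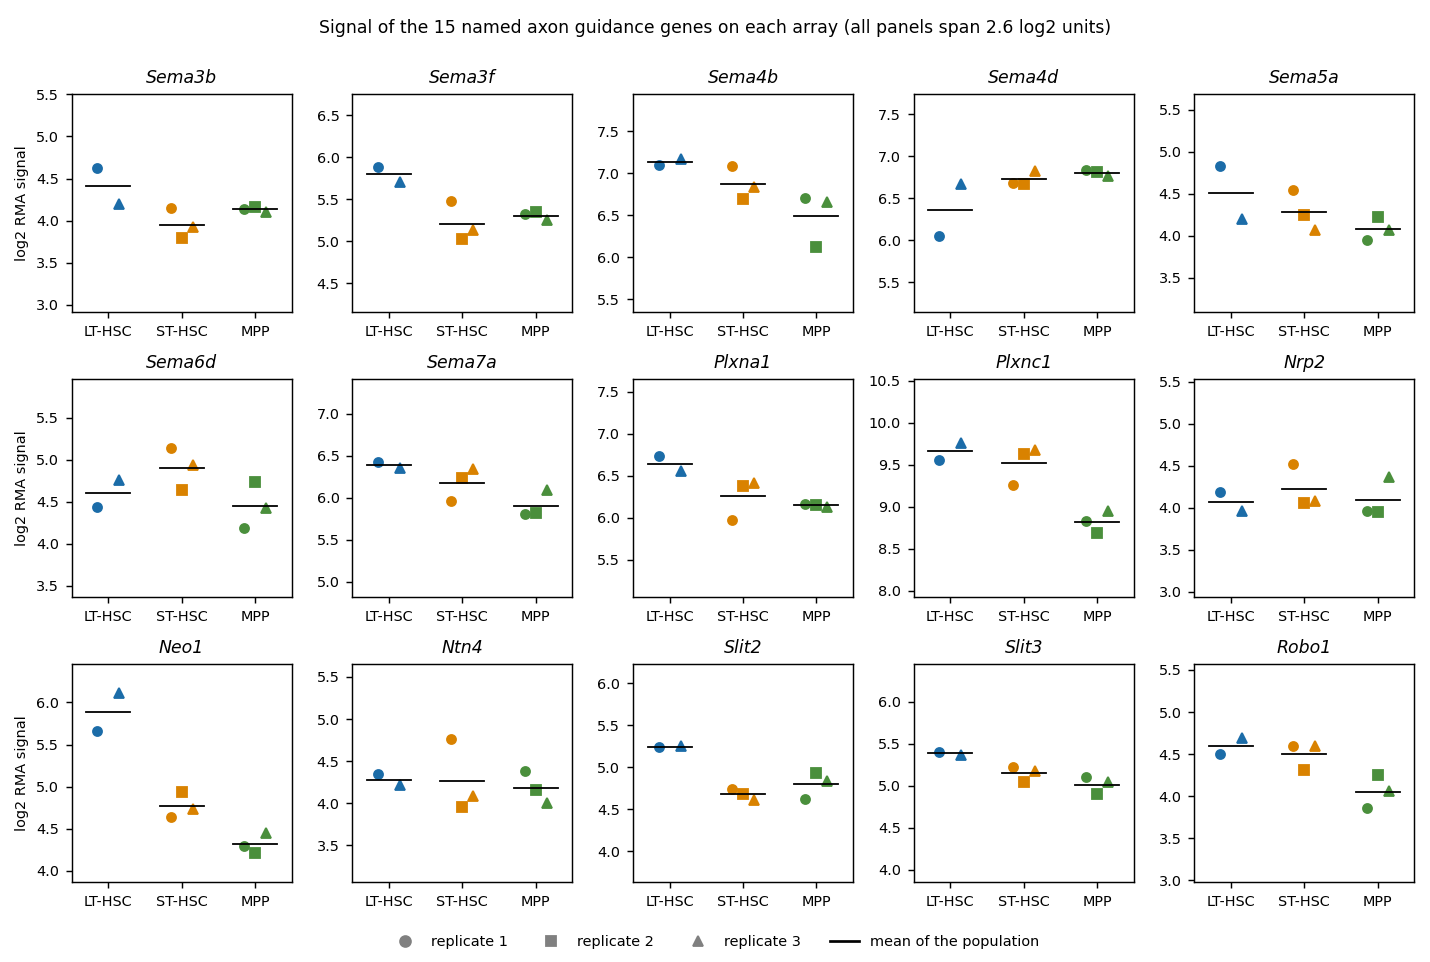
Log2 RMA signal (vertical axis, panels of equal span) of the 15 named members in each of the 8 arrays, by population, with points for arrays and bars for population means. Neo1 separates the populations, at 5.66 and 6.12 in LT-HSC and 4.21 to 4.45 in MPP, and Plxnc1 is lower in the 3 MPP arrays, at 8.69 to 8.95, than in the other 5, at 9.26 to 9.76.

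The stretch of 250 bases before the annotated start of Neo1 is printed with those of Plxnc1 and Robo1, the other members whose MPP arrays were all below those of both stem cell populations. That of Sema3d, a further guidance ligand, is printed too. Sema3d was called higher in MPP than in both stem cell populations, but it passed the filter on low values only through its MPP arrays. These are RefSeq sequences of build GRCm38.p6, read 5′ to 3′ on the gene's strand, and 34 of the 42 members had an entry. Neo1 is at chr9:59036442-59036691 on the minus strand, Plxnc1 at chr10:94944846-94945095 on the minus strand, Robo1 at chr16:72662899-72663148 on the plus strand and Sema3d at chr5:12382916-12383165 on the plus strand. Capitals mark a GC box (GGGCGG or its reverse complement) or, in Sema3d, an ETS core (CCGGAA or its reverse complement).
Neo1: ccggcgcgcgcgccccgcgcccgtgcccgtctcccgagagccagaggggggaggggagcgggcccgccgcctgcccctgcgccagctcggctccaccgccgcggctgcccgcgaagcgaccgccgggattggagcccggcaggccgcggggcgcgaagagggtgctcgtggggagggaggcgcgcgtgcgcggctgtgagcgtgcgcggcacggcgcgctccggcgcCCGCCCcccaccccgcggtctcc
Plxnc1: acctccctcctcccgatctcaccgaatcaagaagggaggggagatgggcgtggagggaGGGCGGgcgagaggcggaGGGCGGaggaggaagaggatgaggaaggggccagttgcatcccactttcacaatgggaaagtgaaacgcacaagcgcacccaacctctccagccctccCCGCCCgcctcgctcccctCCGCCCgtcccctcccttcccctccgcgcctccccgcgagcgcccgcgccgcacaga
Robo1: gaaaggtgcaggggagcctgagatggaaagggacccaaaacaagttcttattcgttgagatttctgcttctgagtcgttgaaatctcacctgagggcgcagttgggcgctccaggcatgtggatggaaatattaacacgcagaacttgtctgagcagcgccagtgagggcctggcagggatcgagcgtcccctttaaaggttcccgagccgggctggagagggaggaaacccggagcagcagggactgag
Sema3d: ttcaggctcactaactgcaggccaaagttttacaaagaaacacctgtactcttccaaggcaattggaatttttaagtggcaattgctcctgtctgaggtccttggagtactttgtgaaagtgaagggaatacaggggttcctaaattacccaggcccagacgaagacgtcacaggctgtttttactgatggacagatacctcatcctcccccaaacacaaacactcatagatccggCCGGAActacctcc

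The Neo1 stretch is 83.2% G or C and holds 45 CpG dinucleotides, more than 99.6% of the 32851 promoters of the same length, whose medians were 52.4% and 6. Plxnc1 has 22 CpG, Robo1 11 and Sema3d 4, more than 85.2%, 64.4% and 37.8% of promoters. The GC box occurs 1 time in Neo1 and 4 times in Plxnc1, not in Robo1 or Sema3d, and in 32.7% of all promoters. The ETS core occurs 1 time in Sema3d, in none of the other 3 and in 12% of all promoters. None of the 4 holds the other motifs searched on both strands. These were the core that RUNX factors bind, TGTGGT, found in 14.0% of all promoters, the core of GATA factors, AGATAA, found in 9.99%, and the TATA box, TATAAA, found in 12.4%. The 3 members printed therefore span CpG-rich and ordinary start regions, and a letter match describes the sequence only. Of them only Neo1 was called. All MPP arrays were below all ST-HSC arrays for 7.89% of tested members, against 6.43% of all genes.

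Among the other netrin receptors, which transduce attraction or repulsion, none was called. DCC, the classical attractive receptor, ran from 3.93 to 4.27 over the 8 arrays, Unc5a from 5.26 to 5.88, Unc5b from 3.99 to 4.40 and Unc5c from 4.02 to 4.61. Their MPP minus LT-HSC differences lay between -0.26 (Unc5b) and -0.01 (Unc5a), against -1.57 for Neo1. Neither netrin ligand was called. Ntn4, a secreted netrin that also binds laminins, read 4.34 and 4.21 in LT-HSC, 4.77, 3.95 and 4.08 in ST-HSC and 4.38, 4.16 and 4.0 in MPP. These ranges overlap, and the 3 differences of -0.10, -0.01 and -0.09 had an F test limma adjusted p of 0.966 and turned sign with the scaling in both comparisons with LT-HSC. Ntn1, the founding netrin, ran from 4.50 to 5.01. Rgmb, a repulsive guidance molecule and neogenin ligand that is no member, read 5.21 and 5.0 in LT-HSC, 4.66, 4.99 and 4.78 in ST-HSC and 4.41, 4.79 and 4.86 in MPP, without a call. It was looked up because it binds neogenin, after its values were seen.

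Plxnc1 came next after Neo1, as the member with the second smallest F test p. Plexin-C1 is the receptor of semaphorin 7A and is found on leukocytes. Its probe set, 17244439, read 9.56 and 9.76 in LT-HSC, 9.26, 9.63 and 9.67 in ST-HSC and 8.83, 8.69 and 8.95 in MPP. The ST-HSC and LT-HSC arrays overlapped, while all 3 MPP arrays were below every stem cell array. LT-HSC averaged 9.66 ± 0.14 (SD, n = 2), ST-HSC 9.52 ± 0.23 (SD, n = 3) and MPP 8.82 ± 0.13 (SD, n = 3). MPP differed from LT-HSC by -0.84 (SE 0.19, limma adjusted p = 0.165) and from ST-HSC by -0.70 (SE 0.17, limma adjusted p = 0.167), and neither passed. ST-HSC differed from LT-HSC by -0.14 (limma adjusted p = 0.819).

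Plxnc1 passed the threshold in a few settings. After quantile normalization of the deposited values MPP differed from LT-HSC by -0.96 (limma adjusted p = 0.0472). There 37 of all genes were called, against 22 in the fit reported here. With array weights its MPP minus ST-HSC difference was -0.72 (limma adjusted p = 0.00824). These weights raised the calls among all genes in that comparison from 34 to 525. Its F test gave a limma adjusted p of 0.0929 in the fit reported here and passed in 3 of 17 alternatives (0.0158 to 0.336 over all). Sema7a, the glycolipid-anchored ligand of plexin-C1, read 6.43 and 6.35 in LT-HSC, 5.96, 6.23 and 6.34 in ST-HSC and 5.80, 5.81 and 6.09 in MPP. Both LT-HSC arrays were above the rest and MPP overlapped ST-HSC. MPP differed from LT-HSC by -0.49 (SE 0.18, limma adjusted p = 0.403), ST-HSC differed from LT-HSC by -0.21 and MPP from ST-HSC by -0.28, so ligand and receptor were both lowest on average in MPP, without a call for either.

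Of the other plexins, Plxna1, a signalling partner of neuropilins, read 6.73 and 6.55 in LT-HSC, 5.97, 6.37 and 6.41 in ST-HSC and 6.17, 6.15 and 6.13 in MPP. Both LT-HSC arrays were highest, and ST-HSC and MPP overlapped. The differences from LT-HSC were -0.49 in MPP (SE 0.18, limma adjusted p = 0.403) and -0.39 in ST-HSC (limma adjusted p = 0.469). A second Plxna1 probe set, not used in the tests, gave -0.37 and -0.23. Plxnb1, the main receptor of semaphorin 4D, went the other way, with 4.45 and 4.18 in LT-HSC, 4.45, 4.47 and 5.04 in ST-HSC and 4.53, 4.87 and 4.91 in MPP. Against LT-HSC, the MPP difference of 0.46 was the highest among all members and was not called, and its second probe set gave 0.03. Nrp2, the one neuropilin that passed the filter, read 4.19 and 3.96 in LT-HSC, 4.52, 4.06 and 4.08 in ST-HSC and 3.96, 3.95 and 4.36 in MPP. The populations overlapped, with differences of 0.02, 0.14 and -0.13 whose signs turned when single arrays were left out.

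Of the 19 semaphorins, 17 were tested and none was called in any comparison. Among the secreted class 3 genes, Sema3f, a ligand of neuropilin-2, read 5.89 and 5.71 in LT-HSC, 5.48, 5.02 and 5.13 in ST-HSC and 5.32, 5.35 and 5.25 in MPP. The LT-HSC arrays were above all 6 others. The differences were -0.59 in ST-HSC (SE 0.18, limma adjusted p = 0.239) and -0.49 in MPP (SE 0.18, limma adjusted p = 0.403). Sema3b, also secreted, read 4.63 and 4.20 in LT-HSC, 4.15, 3.79 and 3.92 in ST-HSC and 4.14, 4.16 and 4.10 in MPP. LT-HSC replicate 1 was highest, and replicate 3 was only just above the highest MPP array. ST-HSC differed from LT-HSC by -0.46 (limma adjusted p = 0.397). The differences from LT-HSC were negative for all 4 tested class 3 members in both comparisons, and for 3 of the 4 after quantile normalization, after median centring or without LT-HSC replicate 1. Sema3d, a class 3 gene outside the members, was higher in MPP, but it passed the filter on low values only through its MPP arrays.

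The transmembrane class 4 semaphorins went in both directions. Sema4b read 7.10 and 7.16 in LT-HSC, 7.08, 6.69 and 6.84 in ST-HSC and 6.71, 6.13 and 6.65 in MPP, with the LT-HSC arrays highest and ST-HSC overlapping MPP. MPP differed from LT-HSC by -0.64 (SE 0.21, limma adjusted p = 0.357). Sema4d, which encodes CD100 of lymphocytes, read 6.05 and 6.67 in LT-HSC, 6.68, 6.67 and 6.82 in ST-HSC and 6.84, 6.81 and 6.76 in MPP. All MPP arrays were above both LT-HSC arrays, but the difference of 0.45 (SE 0.20, limma adjusted p = 0.468) came mostly from LT-HSC replicate 1. Of the 6 tested class 4 genes, MPP minus LT-HSC was negative for 2 and ST-HSC minus LT-HSC for 4.

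Sema5a, a transmembrane semaphorin with thrombospondin repeats, read 4.83 and 4.20 in LT-HSC, 4.54, 4.25 and 4.07 in ST-HSC and 3.95, 4.23 and 4.07 in MPP. Only LT-HSC replicate 1 stood above the other arrays, and MPP differed from LT-HSC by -0.43 (limma adjusted p = 0.518). Sema6d, a transmembrane ligand of plexin-A1, read 4.44 and 4.76 in LT-HSC, 5.14, 4.65 and 4.94 in ST-HSC and 4.19, 4.73 and 4.43 in MPP. It was highest on average in ST-HSC, with overlap, and MPP minus ST-HSC was -0.46 (limma adjusted p = 0.682).

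Slits and Robos gave no call. Slit2, a secreted repellent, read 5.24 and 5.25 in LT-HSC, 4.75, 4.68 and 4.62 in ST-HSC and 4.63, 4.93 and 4.84 in MPP. The 2 LT-HSC arrays were nearly equal and above all others. The differences were -0.56 in ST-HSC (SE 0.17, limma adjusted p = 0.211) and -0.44 in MPP (SE 0.17, limma adjusted p = 0.405). Slit3, its paralog, read 5.40 and 5.37 in LT-HSC, 5.22, 5.04 and 5.17 in ST-HSC and 5.10, 4.90 and 5.04 in MPP. Again both LT-HSC arrays were highest, with differences of -0.24 (limma adjusted p = 0.624) and -0.37 (limma adjusted p = 0.461). Slit1 ran from 4.47 to 4.98 with overlap.

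Robo1, a widely expressed Slit receptor, read 4.50 and 4.69 in LT-HSC, 4.60, 4.31 and 4.60 in ST-HSC and 3.86, 4.25 and 4.06 in MPP. The stem cell populations overlapped and all MPP arrays were below them. The MPP differences were -0.54 from LT-HSC (SE 0.19, limma adjusted p = 0.364) and -0.45 from ST-HSC (SE 0.17, limma adjusted p = 0.526). The remaining Robos were singled out after their values were seen. Robo4 read 6.60 and 7.08 in LT-HSC, 5.72, 6.68 and 6.68 in ST-HSC and 6.64, 6.97 and 6.91 in MPP, with ST-HSC replicate 1, one of the arrays that stood apart, lowest. Its differences were -0.48 in ST-HSC, or -0.16 without that array, and -0.00 in MPP against LT-HSC. Robo3, a divergent Robo, ran from 4.05 to 5.09 with overlap.

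**Figure D2:**
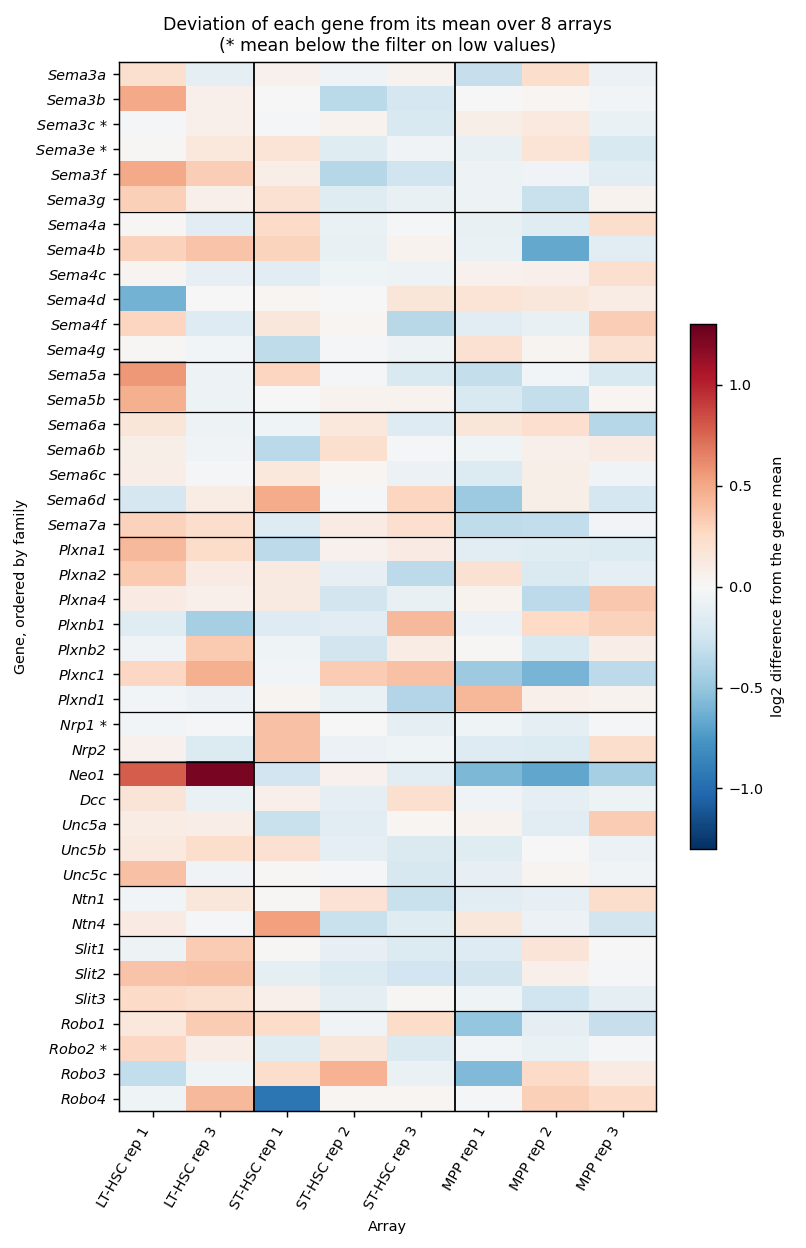
Deviation of each of the 42 members (rows, by family, with a star on the 4 below the filter) from its own mean log2 signal, as colour, in each of the 8 arrays (columns, by population). Neo1 shows the widest contrast, from 1.24 above its mean in LT-HSC replicate 3 to below it in every MPP array, and most other rows stay pale.

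The 23 tested members outside the naming rule differed by -0.36 to 0.46 in MPP minus LT-HSC, by -0.48 to 0.39 in ST-HSC minus LT-HSC, and between -0.27 and 0.48 in MPP minus ST-HSC. Their smallest limma adjusted p in these comparisons were 0.501, 0.574 and 0.852. Between MPP and ST-HSC, 0 of the 38 members passed limma's test in the fit without a block on replicate number, where 0.193% of all genes did. At an unadjusted p under 0.05, 4 were lower in MPP than in ST-HSC (Sema6d, Plxnc1, Neo1 and Robo1), or 10.5% of the members against 3.26% of all genes, and none was higher.

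Before the adjustment, more members were lower outside LT-HSC. At an unadjusted p under 0.05, 9 of 38 (23.7%) were lower in MPP than in LT-HSC, among them Slit2, Slit3 and Sema4b, against 3.6% of all genes, and 1 was higher (Sema4d), against 6.96%. In ST-HSC minus LT-HSC, 4 were lower (Sema3b, Sema3f, Neo1 and Slit2), against 3.25% of all genes, and none was higher. All MPP arrays were below all LT-HSC arrays for 12 members (31.6%), against 10.5% of all genes, and above them for 5 (Sema4c, Sema4d, Sema4g, Plxnb1 and Plxnd1), against 14.1%. All ST-HSC arrays were below all LT-HSC arrays for 9 members (23.7%), against 9.5% of all genes, and above them for 0, against 13.8%. MPP was below ST-HSC without overlap for 3 members (Plxnc1, Neo1 and Robo1), against 6.43% of all genes, and above for 3 (Sema4c, Sema4g and Plxnd1), against 7.75%. Members named here outside the rule were named after their values were seen.

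**Figure D3:**
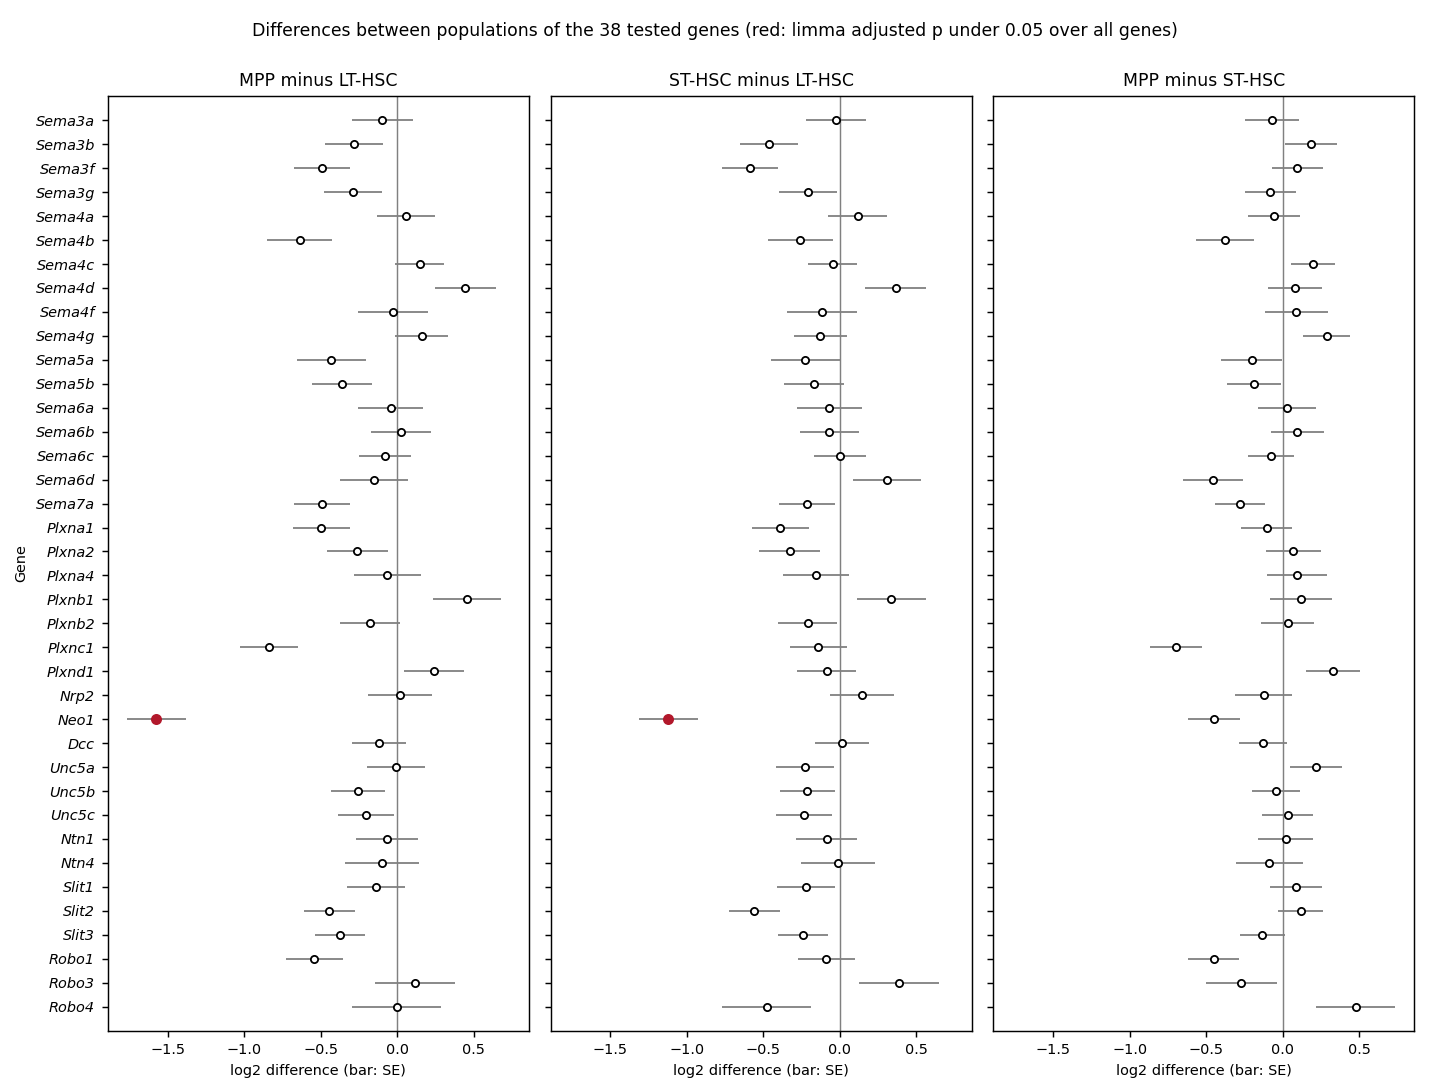
Log2 difference (horizontal axis, points) with its SE (bars) for each of the 38 tested members in the 3 comparisons (one panel each, members by family, filled where called). Neo1 lies farthest below 0 in both comparisons with LT-HSC, at -1.57 and -1.12, and the members spread on both sides of 0 in MPP minus ST-HSC.

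The differences of the members from LT-HSC were mostly negative and mostly small. The median over the 38 was -0.13 in MPP minus LT-HSC, -0.15 in ST-HSC minus LT-HSC and -0.01 in MPP minus ST-HSC, against 0.06, 0.02 and 0.01 over all genes. Negative differences numbered 29, 31 and 19 of 38, or 76.3%, 81.6% and 50% of members, against 42.8%, 48% and 48.3% of all genes. By mean, 27 of 38 members (71.1%) were highest in LT-HSC, against 34.8% of all genes.

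The member counts behind that tilt fell under both scalings of the arrays, and the shares of all genes fell as well, most after median centring. After quantile normalization 19 and 22 of 38 members were negative in MPP and ST-HSC against LT-HSC (40.4% and 44.9% of all genes), with medians of -0.00 and -0.07. After median centring the counts were again 19 and 22 (27.8% and 31.7% of all genes), with medians of -0.01 and -0.04, while the median of all genes moved from 0.06 to 0.18 and from 0.02 to 0.13. Highest in LT-HSC were then 17 members (44.7%) under either scaling, against 30.1% and 20.4% of all genes. Without LT-HSC replicate 1, whose range was narrowest, 19 members (50%) were highest in LT-HSC, against 37.9% of all genes. All MPP arrays were below all LT-HSC arrays for 11 members (28.9%) after quantile normalization, against 9.43% of all genes. After median centring they were for 10 (26.3%), against 5.67%. Without LT-HSC replicate 1, which leaves a single LT-HSC array, they were for 16 (42.1%), against 24.6%. The ST-HSC arrays were all below LT-HSC for 10 members (26.3%) and all above for 5 (13.2%) after quantile normalization, against 10.1% and 15.9% of all genes. After median centring these were 6 (15.8%) and 5 (13.2%), against 5.23% and 17.1%. Without LT-HSC replicate 1 they were 15 (39.5%) and 5 (13.2%), against 27.1% and 23.5%. The absence of members above LT-HSC in ST-HSC thus held in the deposited values and under none of these 3 settings.

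By family, the signs depended on the scaling to different degrees. The Slits stayed negative in ST-HSC minus LT-HSC for 3 of 3 genes, and in MPP minus LT-HSC for 3 of 3, or 2 of 3 after quantile normalization. The netrin receptors were negative in MPP minus LT-HSC for 5 of 5 and for 3 of 5 under each scaling. The plexins were negative for 5 of 7 in MPP and 6 of 7 in ST-HSC against LT-HSC, and for 4 and 5 under each scaling. The netrins, negative for 2 of 2 in both comparisons, turned positive under both scalings, and the tested semaphorins went from 12 and 14 of 17 negative to 8 and 9.

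**Figure D4:**
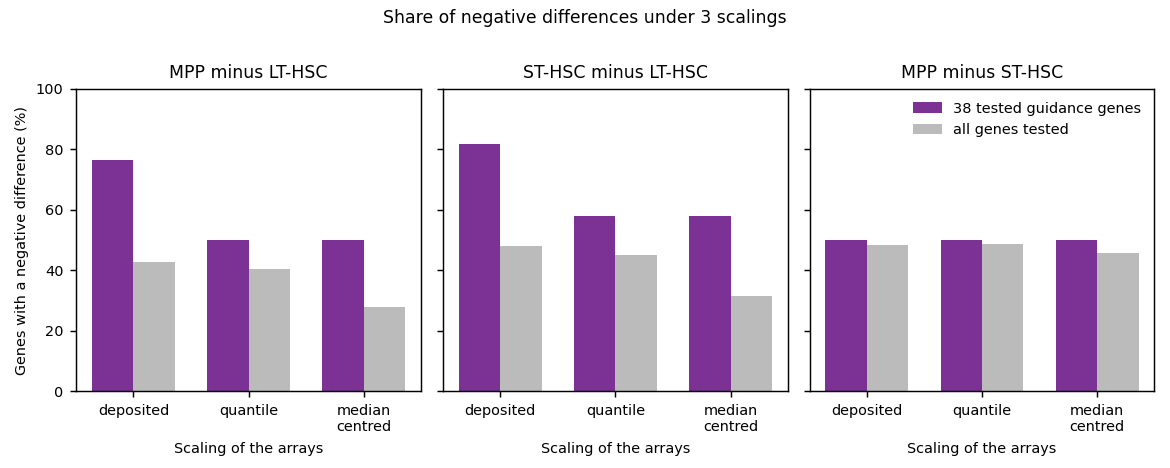
Share of tested members and of all tested genes (vertical axis, percent) with a negative log2 difference, for the 3 comparisons in the deposited values, after quantile normalization and after median centring. In MPP minus LT-HSC the members go from 76.3% to 50% under both scalings, and all genes from 42.8% to 40.4% and 27.8%.

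The rest of the guidance pathway was read from 4 lists. Of 13 tested genes among further guidance ligands and receptors (17 listed, 15 matched), 1 was called, Sema3d, a secreted class 3 semaphorin that binds neuropilins. It was higher in MPP than in either stem cell population, where 0.00569% and 0.0683% of all genes were called higher. Its probe set, 17434742, read 3.78 and 4.24 in LT-HSC, 3.93, 3.74 and 3.63 in ST-HSC and 5.95, 5.46 and 5.24 in MPP. All 3 MPP arrays were above all 5 stem cell arrays, which overlapped each other. The log2 differences were 1.54 against LT-HSC (SE 0.24, limma adjusted p = 0.0387) and 1.78 against ST-HSC (SE 0.21, limma adjusted p = 0.0141). The 5 stem cell arrays averaged 3.86, under the filter value of 3.88, so Sema3d entered the test only through its MPP arrays, and signal over background was not analysed here. Without the filter its limma adjusted p was 0.0563 and 0.0196. The 2 calls were lost in 11 of 17 and 5 of 18 alternatives (limma adjusted p up to 0.253 and 0.0853). Among these were the fits without LT-HSC replicate 1, ST-HSC replicate 2 or 3 or any MPP array for the first, and without ST-HSC replicate 2 or 3 or MPP replicate 2 or 3 for the second. Ntng2, a membrane-anchored netrin-G, read 4.60 and 4.30 in LT-HSC, 4.60, 4.67 and 4.81 in ST-HSC and 5.37, 5.21 and 5.28 in MPP, higher in MPP without overlap, and was not called (limma adjusted p = 0.149 and 0.209). The list's median differences were -0.18 in MPP and -0.29 in ST-HSC against LT-HSC and 0.04 in MPP minus ST-HSC. The first was -0.05 after quantile normalization, -0.06 after median centring and 0.02 without LT-HSC replicate 1, where the second was -0.13.

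Of the 36 tested genes of intracellular guidance signalling (39 listed), 1 was called, as higher in MPP than in ST-HSC, where 0.0683% of all genes were, and by the F test, where 0.905% were. Ablim1, an actin-binding LIM protein, read 5.84 and 5.96 in LT-HSC, 5.10, 5.35 and 5.30 in ST-HSC and 6.15, 6.29 and 6.21 in MPP, lowest in ST-HSC and highest in MPP with no overlap. It was higher in MPP than in ST-HSC by 0.97 (SE 0.15, limma adjusted p = 0.0324), a call lost in 7 of 19 alternatives (limma adjusted p up to 0.206), which were median centring and the fits without any one of the 6 ST-HSC and MPP arrays. Its F test passed in 9 of 17 alternatives. Enah, an actin regulator at the leading edge, read 6.01 and 5.44 in LT-HSC, 5.23, 4.64 and 5.03 in ST-HSC and 5.04, 4.87 and 4.85 in MPP. LT-HSC was highest without overlap, and neither -0.75 in ST-HSC nor -0.81 in MPP was called (limma adjusted p = 0.215 and 0.257). When LT-HSC replicate 3 was left out, they were -1.04 and -1.09, against replicate 1 alone, one of the arrays that stood apart. With LT-HSC replicate 1 left out they were -0.47 and -0.52, against replicate 3 alone. The list's medians were 0.11, 0.06 and 0.07 for MPP minus LT-HSC, ST-HSC minus LT-HSC and MPP minus ST-HSC, against 0.06, 0.02 and 0.01 over all genes. Without LT-HSC replicate 1 the first 2 turned to -0.04 and -0.07, and after median centring they were 0.23 and 0.17.

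None of 19 tested ephrins and Eph receptors (22 listed) and none of 15 tested co-receptors and non-plexin semaphorin receptors (18 listed) was called by limma in any comparison. At an unadjusted p under 0.05, 2, 1 and 2 of the former and 3, 2 and 3 of the latter differed in MPP minus LT-HSC, ST-HSC minus LT-HSC and MPP minus ST-HSC, against 10.6%, 11.1% and 6.89% of all genes. Efnb2, a transmembrane ephrin, read 4.71 and 5.12 in LT-HSC, 4.45, 4.96 and 4.50 in ST-HSC and 3.99, 4.13 and 4.0 in MPP, with all MPP arrays lowest (MPP minus LT-HSC -0.87, limma adjusted p = 0.187). Efna1, a glycolipid-anchored ephrin, read 6.02 and 6.46 in LT-HSC, 5.08, 5.69 and 5.68 in ST-HSC and 5.21, 5.25 and 5.52 in MPP, highest in LT-HSC without overlap (MPP minus LT-HSC -0.91, limma adjusted p = 0.203). Sdc1, the heparan sulfate proteoglycan syndecan-1, read 5.83 and 6.84 in LT-HSC, 6.54, 5.58 and 6.09 in ST-HSC and 7.52, 7.53 and 7.16 in MPP. Its MPP arrays were all highest, and MPP minus ST-HSC was 1.34 (limma adjusted p = 0.112), or 0.0207 in a fit blocked on replicate number. Against LT-HSC it was 1.07 higher (limma adjusted p = 0.291), or 1.58 against LT-HSC replicate 1 alone, one of the arrays that stood apart. Cxcr4, the chemokine receptor of bone marrow homing, read 8.07 and 7.81 in LT-HSC, 8.59, 8.69 and 8.51 in ST-HSC and 8.81, 9.75 and 8.74 in MPP, in the order LT-HSC, ST-HSC and MPP without overlap, and was not called (MPP minus LT-HSC 1.16, limma adjusted p = 0.187).

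**Figure D5:**
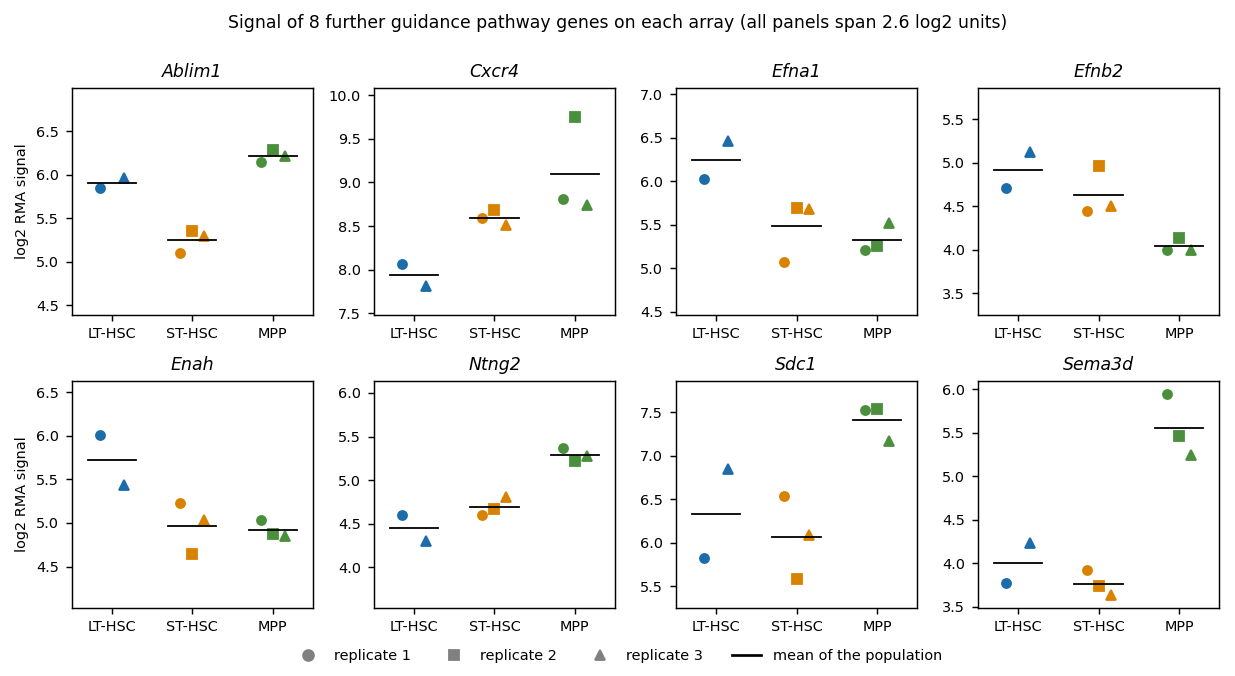
Log2 RMA signal (vertical axis, one scale per panel) of the 8 named genes of the 4 further pathway lists in each array, by population, with points for arrays and bars for means. Sema3d is at 5.24 to 5.95 in MPP and 3.63 to 4.24 in the other arrays, and Ablim1 is lowest in ST-HSC, at 5.10 to 5.35.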

How the data were processed

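RNA was extracted with Trizol and amplified with the Ovation Pico WTA System V2 per the labels' protocols. The amplified product, labelled with biotin (Encore Biotin Module), was hybridised to 1 array per sample. The deposited values were log2 signals of 33649 probe sets, made with RMA per the submitters' processing notes. That they are on a log2 scale is inferred from their range. RMA compresses differences of dim probe sets, and amplification can add spread between arrays. The platform annotation gave 23521 probe sets 1 gene symbol, 1814 several and 8314 none.

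A single model in limma 3.58.1 (R 4.3.3) took all 8 arrays, estimating each population's mean and 1 common spread, since LT-HSC had 2 arrays (residual degrees of freedom 5, prior 5.93). The pairwise contrasts and the F test were adjusted by Benjamini-Hochberg over 17576 genes, and called at an adjusted p under 0.05. The filter was the 25th percentile of probe set means. The script was tested on simulated data. Values are given for members that were called, the 12 members with the smallest F test p, the leading member of each family, and, of each pathway list, called genes and the 2 with the smallest F test p. Members and lists were chosen with earlier results of these data known. Raw signals and depth over background were not analysed here, and the number of arrays limits the precision.

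ST-HSC and MPP arrays with the same replicate number deviated together from their group means (correlations 0.15, 0.23 and 0.21). The numbers were read as possible pairs for this comparison, with the block as an alternative fit. For LT-HSC the shared numbers gave -0.16 and 0.10 with MPP and 0.54 and 0.47 with ST-HSC, from 2 pairs each. The deviations of 2 arrays from their mean mirror each other, so these are not separate checks. The LT-HSC numbers were not taken as pairs, though the values with ST-HSC were the larger. With the block over all arrays, genes called in ST-HSC minus LT-HSC rose from 164 to 473. Values of MPP minus ST-HSC are from the fit without the block unless stated, and a blocked result is given where a call changed. With the block over all arrays, all genes called in this comparison rose from 34 to 267. With the block and these 2 groups alone they rose to 289, while called members stayed at 0 in both fits. Alternatives were 2 array scalings, 2 filters, averaged probe sets, 2 groups alone, array weights, another variance prior, the block, and leaving out arrays.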

Additional observations from a re-analysis of the deposited data

How the results depend on the processing

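The counts of negative differences and of members highest in LT-HSC, the pathway genes' alternatives and the 2-group fit with the block were added after the data were seen. Quantile normalization gave 2 called members in MPP minus LT-HSC, where 37 of all genes were called, and 2 by the F test. Its medians were -0.0027 in MPP minus LT-HSC and -0.068 in ST-HSC minus LT-HSC. It gave 19 negative differences in MPP minus LT-HSC and 17 members highest in LT-HSC. Median centring gave 0 called members in either comparison with LT-HSC, where 5 and 104 of all genes were, and 0 by the F test. Its medians were -0.0052 and -0.037, with 19 negative differences and 17 members highest in LT-HSC. The filter at the 50th percentile kept 15 members and not Neo1. It called 0 in either comparison with LT-HSC, where 16 and 179 of all genes were called, and 0 by the F test. Its medians were -0.18, -0.21 and 0.033 for MPP minus LT-HSC, ST-HSC minus LT-HSC and MPP minus ST-HSC. The negative differences numbered 11, 13 and 7, and 11 members were highest in LT-HSC. Array weights called 0 members in either comparison with LT-HSC, where 9 and 61 of all genes were called. In MPP minus ST-HSC they called 1 member and 525 of all genes, against 34 of all genes in the fit reported here. They called 2 members by the F test, and the median was 0.049 in MPP minus ST-HSC. With the 2 groups alone, 0 members were called in ST-HSC minus LT-HSC, where 100 of all genes were. Without both arrays that stood apart, 0 were called in ST-HSC minus LT-HSC, and the medians were -0.080 in MPP minus LT-HSC and 0.033 in MPP minus ST-HSC. The cause was not tested, beyond the smaller number of genes or arrays where the setting itself removes them.

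The replicate block was a term for the replicate number in all 8 arrays. It thus included LT-HSC, whose numbers were not taken as pairs, so its LT-HSC comparisons and F tests rest partly on that choice. It called 2 members by the F test, Neo1 and Plxnc1 (limma adjusted p = 0.0358), and turned the Ntn4 ST-HSC minus LT-HSC difference to 0.074. It also called Efna1 and Efnb2 as lower in MPP than LT-HSC (0.0448 and 0.0416), Sdc1 in MPP minus ST-HSC, and Ntng2, Efna1, Efnb2 and Sdc1 by the F test (0.0455, 0.0373, 0.0304 and 0.0196). Beside these it changed no call of a named gene. Leaving out 1 array at a time gave 0 to 1 called members in each comparison with LT-HSC. The medians then lay between -0.19 and -0.080 for MPP minus LT-HSC, -0.17 and -0.093 for ST-HSC minus LT-HSC, and -0.058 and 0.033 for MPP minus ST-HSC.

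Signs turned only among differences that were not called. Ntn4 turned to 0.033 and 0.024 in MPP minus LT-HSC and to 0.11 and 0.099 in ST-HSC minus LT-HSC after quantile normalization and median centring. In MPP minus ST-HSC it turned to 0.0086 with array weights and 0.16 without both arrays that stood apart. Robo1 turned to 0.037 and 0.021 in ST-HSC minus LT-HSC under these scalings. In MPP minus ST-HSC, Nrp2 turned to 0.11 with array weights and 0.024 without both arrays that stood apart, and Enah to 0.029 and 0.080. With 1 array left out, ranges crossed 0 for Sema5a in ST-HSC minus LT-HSC (-0.54 to 0.087), Sema6d in MPP minus LT-HSC (-0.31 to 0.0082), Robo1 in ST-HSC minus LT-HSC (-0.19 to 0.0070), Enah in MPP minus ST-HSC (-0.21 to 0.080) and Sdc1 in ST-HSC minus LT-HSC (-0.77 to 0.24). They did so for Nrp2 in MPP minus LT-HSC (-0.12 to 0.13), ST-HSC minus LT-HSC (-0.0053 to 0.26) and MPP minus ST-HSC (-0.26 to 0.024). For Ntn4 they did in ST-HSC minus LT-HSC (-0.26 to 0.15) and MPP minus ST-HSC (-0.25 to 0.16).

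The arrays number 2 to 3 per population, RNA amplification can add spread, and signal over background was not analysed here, so whether members near the filter were detected was not tested.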
